A study of Mus musculus with 2 samples.

Results

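The genes described here are the semaphorins, ephrins, Slits and netrins, which are extracellular guidance cues, together with their plexin, Eph, Robo and Unc5 receptors. They were chosen by symbol alone. Every row of the count table whose symbol starts with Sema, Plxn, Efna, Efnb, Epha, Ephb or Unc5 was taken, with Slit1 to Slit3, Robo1 to Robo4, Ntn1 and Ntn4. This gave 62 of 22508 genes, and all 62 had at least 1 UMI, a molecule counted once. They are 20 semaphorins, 9 plexins, 7 ephrins, 11 Eph receptors, 3 Slits, 4 Robo receptors, 2 netrins and 3 Unc5 receptors. The other 3 matched by name only: Unc50, a Golgi protein, Unc5cl, a death-domain relative of the Unc5 receptors, and Plxna4os1, an antisense transcript of Plxna4.

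Single cells of liver from 8-week-old wild-type C57BL/6 mice were read in 2 libraries of 1 group, WT replicate 1 and WT replicate 2, by droplet sequencing of 3' transcript ends after enzymatic dissociation and a Percoll gradient. The labels name no treatment and do not say that the libraries came from separate animals. Nearly all cells of replicate 2 passed the stellate gate, and all other types were read in replicate 1. Since no type had 20 cells in both libraries, no test between samples could be made, and each difference between stellate-like cells and another type is also a difference between libraries.

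Guidance cues were first described in growing axons and act in many tissues. Semaphorins bind plexins, in the case of the secreted class 3 mostly with the neuropilins Nrp1 and Nrp2 as coreceptors. Ephrins are bound to the membrane and meet Eph receptors on a touching cell, with signals into both cells, while Slits bind Robo receptors and netrins bind Dcc, Neo1 and Unc5 receptors. In blood vessels Efnb2 is known as an arterial and Ephb4 as a venous gene, and Robo4 is a receptor of endothelial cells.

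The promoters of Efnb2, Ephb4 and Sema3d are shown because Efnb2 ran in the opposite order to Ephb4 and Sema3d across the blood endothelial types described below. Each sequence is the 250 bases before the first base of the gene in RefSeq (build GRCm38.p6), written 5′ to 3′ on the gene's strand. Capitals mark the GC box, GGGCGG or its reverse complement CCGCCC. The windows are chr8:8661243-8661492 (minus strand) for Efnb2, chr5:137349859-137350108 (plus strand) for Ephb4 and chr5:12382916-12383165 (plus strand) for Sema3d.
Efnb2: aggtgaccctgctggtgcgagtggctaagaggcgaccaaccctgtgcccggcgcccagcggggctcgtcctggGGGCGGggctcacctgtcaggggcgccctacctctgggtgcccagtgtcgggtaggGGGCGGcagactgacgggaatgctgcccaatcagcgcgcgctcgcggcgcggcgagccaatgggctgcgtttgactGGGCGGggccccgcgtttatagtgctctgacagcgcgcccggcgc
Ephb4: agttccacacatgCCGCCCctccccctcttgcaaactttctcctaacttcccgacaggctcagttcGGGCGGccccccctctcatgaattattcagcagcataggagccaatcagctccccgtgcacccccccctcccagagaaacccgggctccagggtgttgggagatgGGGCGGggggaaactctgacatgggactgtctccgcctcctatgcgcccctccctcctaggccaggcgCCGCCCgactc
Sema3d: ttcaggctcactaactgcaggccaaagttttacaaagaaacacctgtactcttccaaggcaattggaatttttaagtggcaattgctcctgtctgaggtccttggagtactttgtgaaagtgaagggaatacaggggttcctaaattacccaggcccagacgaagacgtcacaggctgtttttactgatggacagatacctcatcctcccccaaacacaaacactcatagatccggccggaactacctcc
The Efnb2 window held 3 GC boxes and 27 CpG dinucleotides, the Ephb4 window 4 and 12, and the Sema3d window 0 and 4. Over the whole set, 53 of the 62 members matched a RefSeq promoter by symbol, with 68 start sites. The GC box was in 47 of these 68 windows (69.1%), against 32.7% of all 32851 promoter windows, and the median CpG number was 15 against 6. TATAAA on either strand was in 2 member windows (2.94% against 12.4%), the ETS core CCGGAAG in 3 (4.41% against 6.91%) and the RBPJ core TGGGAA in 11 (16.2% against 21.6%). No overlap between these motifs was removed. A match is a description of the letters, and a window without a match says nothing of binding.

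Cell types were set by UMI gates on marker genes, in which a cell needed UMIs of at least 3 markers, and they are called by their gate with the ending -like. Of 18 gated types 16 had at least 20 cells, from 25 monocyte-like cells to 2625 sinusoidal endothelial-like cells, and their summed UMIs ranged from 65847 (neutrophil-like) to 13633855. Levels are CPM, a gene's UMIs per 1000000 UMIs of the type, and their brackets are exact 95% Poisson intervals that cover counting error only. In replicate 1 115 cells were left out as mixed and 339 (5.01%, median 1098 UMIs) passed no gate. The genes leading the sinusoidal endothelial-like class by fold held none of its 6 gate markers and began with the hemoglobin gene Hbb-bt, although all 6 markers were seen there, with 171010 UMIs. 5 barcodes occurred in both libraries and were kept as separate cells.

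The stellate-like cells of replicate 2 also carried endothelial transcripts, which bears on the receptors below. Of these 2337 cells, 559 also passed the sinusoidal endothelial gate and stayed stellate-like because their stellate marker UMIs were at least 3 times as many. The 9 sinusoidal genes used as markers or check genes stood in stellate-like cells at 3.99 to 9.92% of their sinusoidal level (median 6.68%), with Bmp2 at 257 CPM against 2590. Of the 17 members with at least 50 CPM in sinusoidal endothelial-like cells, 6 had a stellate level within or below that range. These were Efnb2 (3.11%), Plxna2 (3.43%), Robo4 (4.86%), Sema6a (5.34%), Ntn4 (5.60%) and Efna1 (6.05%). The other 11 stood above it, among them Efnb1 at 19.2%, Plxnc1 at 23.5% and Ephb4 at 32.2%. The share of all genes on either side of this range is not given here, so the split has no background.

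**Figure D1:**
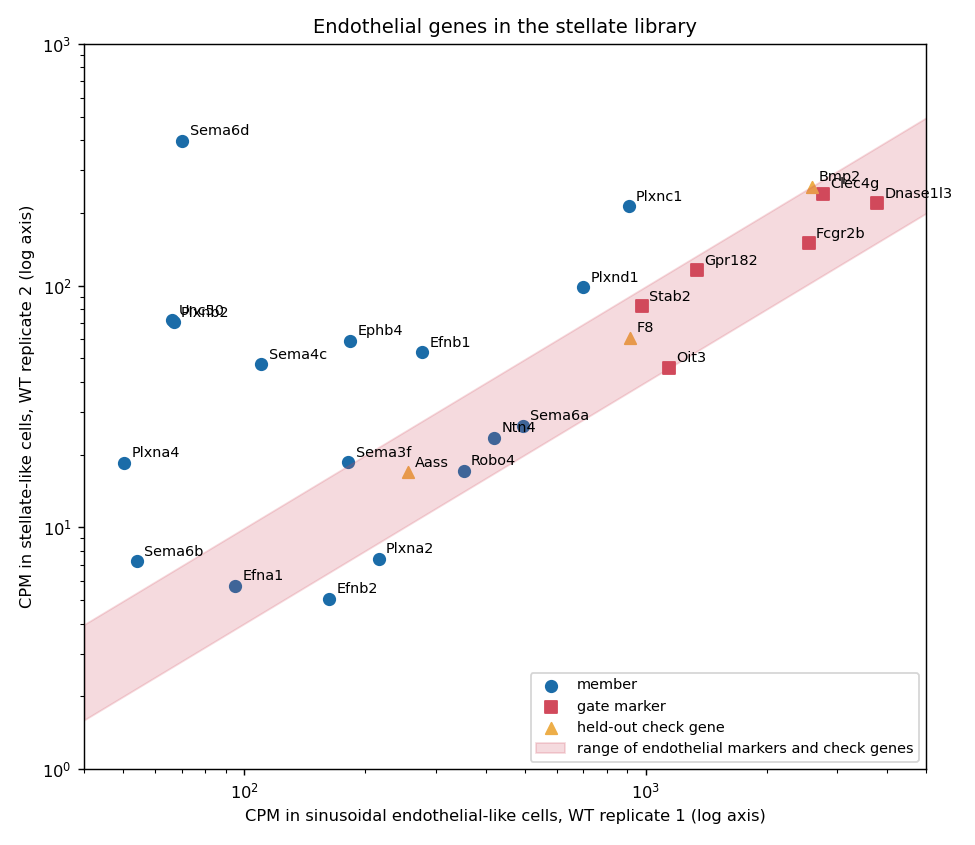
Level in stellate-like cells of WT replicate 2 (vertical, CPM, log axis) against the level in sinusoidal endothelial-like cells of WT replicate 1 (horizontal, CPM, log axis) for members with at least 50 CPM in the latter (circles), sinusoidal gate markers (squares) and held-out check genes (triangles). The shaded band spans the 3.99 to 9.92% range of the markers and check genes: Robo4, Ntn4, Sema6a and Efna1 lie in it, Efnb2 and Plxna2 below it, and Plxnc1, Ephb4, Efnb1 and Sema6d above it.

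Guidance transcripts were most abundant in endothelial, mesothelial and stellate-like cells, and those of receptors were scarce in lymphocyte-like cells. Summed over the families, ligands reached 3016 CPM (2920 to 3114) in vascular endothelial-like, 1935 (1911 to 1958) in sinusoidal endothelial-like and 1901 (1838 to 1965) in mesothelial-like cells. Stellate-like cells had 1264 CPM of ligands and Kupffer-like cells 555. Receptors were highest in sinusoidal endothelial-like cells at 2578 CPM (2551 to 2605), followed by central vein endothelial-like cells at 2170 (2092 to 2251) and vascular endothelial-like cells at 1711 (1639 to 1785). The order thus differed between both sides: the 3 blood endothelial types had intervals that did not overlap for either sum. T-like cells had 50.7 CPM of receptors (31 UMIs), and NK and ILC1-like cells had 0 UMIs of any receptor, which at this depth allows up to 31.3 CPM by a limit of 3 counts. Ligands stood at 224 CPM (137 UMIs) in T-like and 313 CPM (30 UMIs) in NK and ILC1-like cells, against 218 CPM in hepatocyte-like cells.

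**Figure D2:**
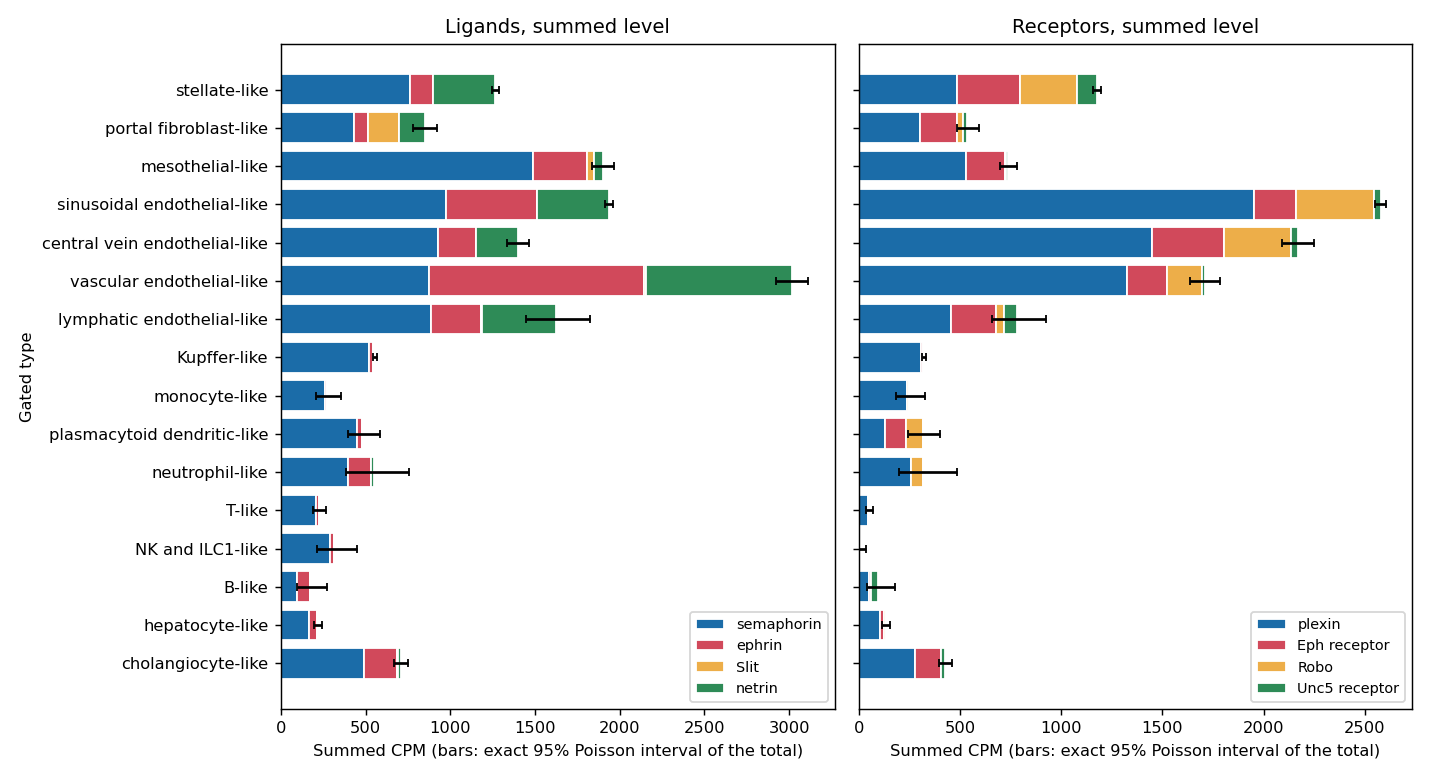
Summed CPM of the ligand families (left) and receptor families (right) in each gated type, stacked by family, with the exact 95% Poisson interval of each total as a black bar. The vascular endothelial-like type has the largest ligand sum (3016 CPM), most of it ephrins and netrins, and the sinusoidal endothelial-like type has the largest receptor sum (2578 CPM), most of it plexins.

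By the level rule 35 members reached 50 CPM from at least 20 UMIs in their highest type, among them 13 semaphorins, 7 plexins, 4 ephrins and 5 Eph receptors. The share of all genes that reached this level is not given here, so these counts have no background. A gene was called led by a type when its CPM there was at least 2-fold that of every other type, with a value of 0 set to 3 counts of that type. Of 49 members with enough UMIs 13 (26.5%) were led by 1 type, against 16.8% of all genes so tested. Mesothelial-like cells led 4 of 31 members (1.53% of all genes), stellate-like 2 of 40 (1.11%), vascular endothelial-like 2 of 23 (0.49%) and plasmacytoid dendritic-like 2 of 3 (7.52%). Portal fibroblast-like cells led 1 of 14 (2.28%), hepatocyte-like 1 of 7 (8.1%) and cholangiocyte-like 1 of 23 (1.67%). A gene with 0 UMIs in neutrophil-like cells could be led only from about 91 CPM, because 3 counts there equal 45.6 CPM. Over the 10 types with at least 500000 UMIs, a choice made after seeing the data, 21 of 51 members (41.2%) were led, against 25.8% of all genes.

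**Figure D3:**
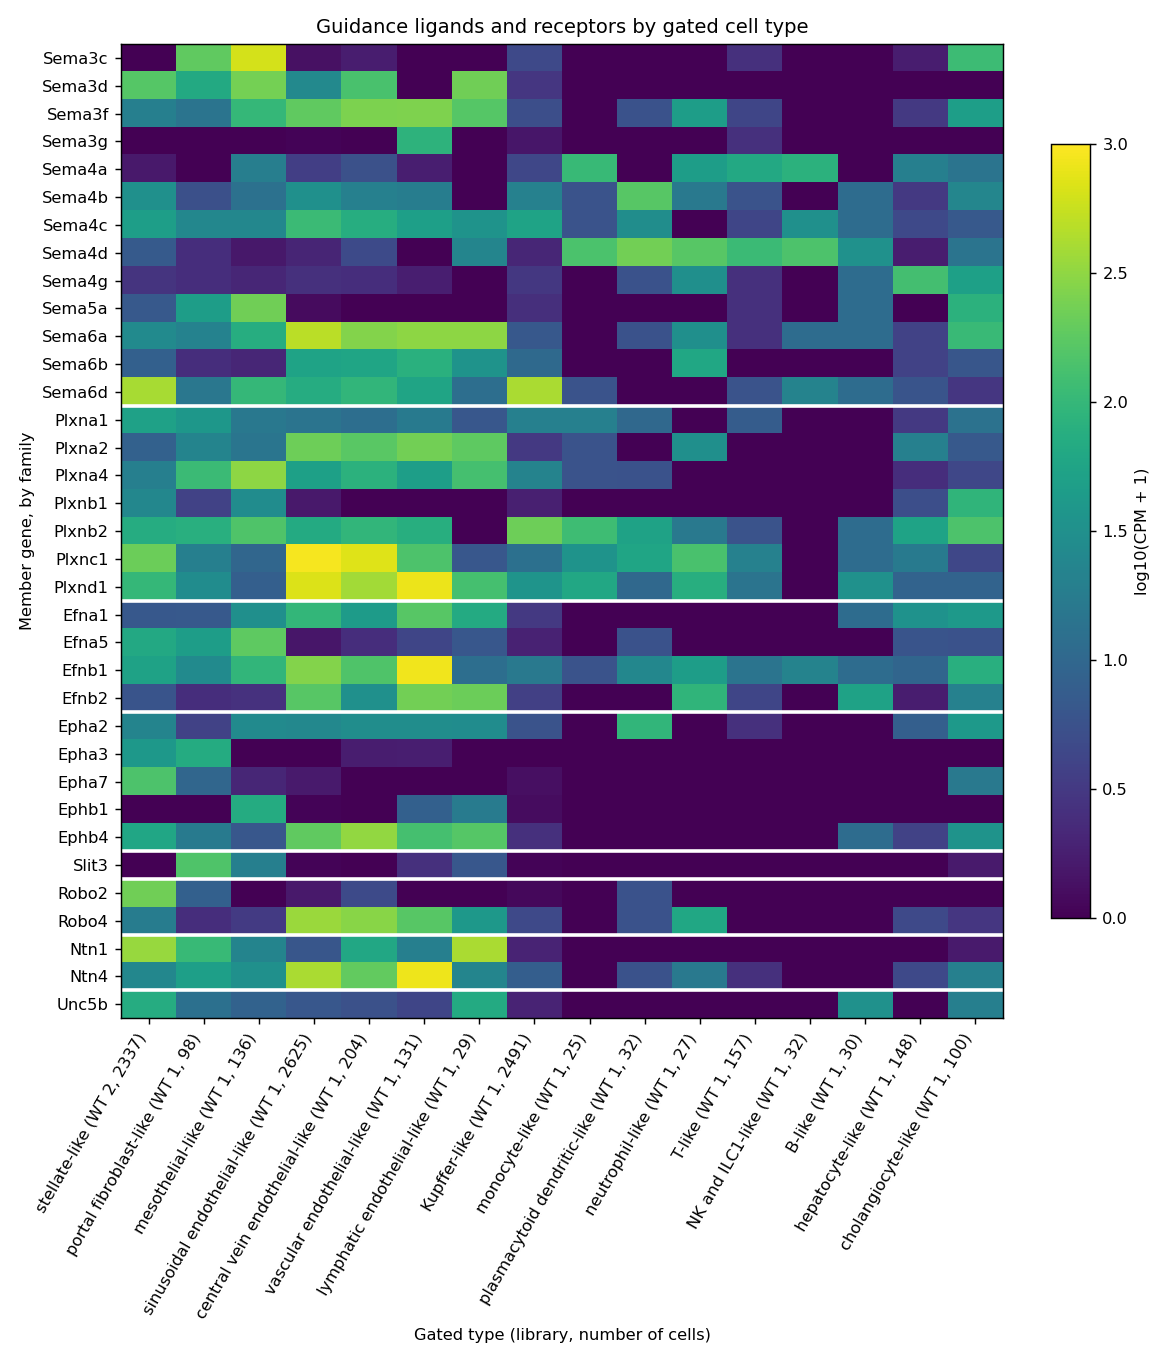
Level of the 35 members that reached 50 CPM (rows, grouped by family with white lines) in the 16 gated types (columns, with library and number of cells), as log10(CPM + 1). Plxnc1, Plxnd1, Efnb1, Ntn4, Sema6a and Robo4 are bright in the blood endothelial columns, Sema3c, Sema5a and Plxna4 in the mesothelial column, and Robo2 and Epha7 in the stellate column.

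Among secreted class 3 semaphorins, Sema3c, a ligand known from heart and vessel development, stood at 636 CPM (600 to 674) in mesothelial-like cells. It followed at 182 CPM in portal fibroblast-like and 112 in cholangiocyte-like cells, and had 0 UMIs in stellate-like cells. Mesothelial-like cells led it 3.49-fold (2.90 to 4.24). Sema3d, which acts on endothelial cells and can signal through Nrp1, was spread more widely. Its levels in mesothelial-like (238 CPM, 216 to 262) and lymphatic endothelial-like cells (222, 159 to 302) had overlapping intervals, and stellate-like cells held 162 CPM and central vein endothelial-like cells 137. Sinusoidal endothelial-like cells had 25.1 CPM, and the 131 vascular endothelial-like cells had 0 UMIs. Sema3f, a ligand of Nrp2, was at 264 CPM in vascular, 256 in central vein and 182 in sinusoidal endothelial-like cells. The first 2 of these did not differ beyond their intervals. Sema3g, known from arterial endothelium, was read in vascular endothelial-like cells at 87.0 CPM (108 UMIs), with 1 UMI in sinusoidal and 0 in central vein endothelial-like cells.

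Among the membrane-bound class 4 semaphorins, Sema4d, which binds Plxnb1 and the lymphocyte protein Cd72, stood at 227 CPM (167 to 301) in plasmacytoid dendritic-like, 167 in neutrophil-like, 146 in NK and ILC1-like, 139 in monocyte-like and 111 in T-like cells. These levels came from 48, 11, 14, 29 and 68 UMIs, and only the T-like interval (86.4 to 141) did not overlap that of plasmacytoid dendritic-like cells. Sema4a, a semaphorin of immune cells, stood at 105 CPM (22 UMIs) in monocyte-like, 83.5 (8 UMIs) in NK and ILC1-like and 63.8 (39 UMIs) in T-like cells, with overlapping intervals. Sema4b stood at 165 CPM (35 UMIs) in plasmacytoid dendritic-like cells, against 30.9 CPM in sinusoidal endothelial-like and 30.7 in stellate-like cells. Sema4g was led by hepatocyte-like cells (125 CPM, 2.55-fold over cholangiocyte-like cells, 1.93 to 3.39). Sema4c, a ligand of Plxnb2, was highest in sinusoidal endothelial-like cells at 110 CPM.

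Sema6d, a transmembrane ligand of Plxna1, was the most abundant semaphorin of both Kupffer-like and stellate-like cells. It stood at 411 CPM (400 to 423) in the former and 399 (387 to 410) in the latter, intervals that overlap, and made up 79.1% and 52.2% of all semaphorin UMIs there. Sema6a, a ligand of Plxna2 and Plxna4, was highest in sinusoidal endothelial-like cells at 494 CPM and stood at 278 to 311 CPM in the other 3 endothelial types. Sema6b, of the same class, stood at 79.7 CPM in vascular, 57.8 in central vein and 54.1 in sinusoidal endothelial-like cells. Sema5a, which can act as attractant or repellent, was led by mesothelial-like cells (220 CPM, 2.61-fold over cholangiocyte-like cells). Sema6c, at 44.4 CPM in stellate-like cells, fell below the level rule but was 3.81-fold (1.92 to 8.88) above portal fibroblast-like cells, the next of the 10 types with most UMIs.

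The plexins, receptors of semaphorins, were strongest in endothelium. Plxnc1 stood at 906 CPM (891 to 923) in sinusoidal and 703 (659 to 750) in central vein endothelial-like cells, and at 143 in vascular endothelial-like cells. Stellate-like cells of replicate 2 held 213 CPM, more than vascular endothelial-like cells. The part of the endothelial transcripts carried by these stellate-like cells in that value was not tested. The known Plxnc1 ligand Sema7a, which is named here for that pairing and after its values were seen, had 43 UMIs in all of replicate 1. Its highest level in a type with at least 20 cells was 16.6 CPM (3 UMIs, lymphatic endothelial-like). Vascular endothelial-like cells had 8.86 CPM (11 UMIs) and the cells of no gate 18.3 CPM (17 UMIs). The 10 stellate-like cells of replicate 1 held 4 UMIs of Sema7a (57.8 CPM), against 0 UMIs in those of replicate 2. Plxnd1, the receptor of Sema3e and a regulator of vessel growth, stood at 818 CPM in vascular, 698 in sinusoidal and 387 in central vein endothelial-like cells. Sema3e itself, named for the same reason, reached 23.7 CPM (43 UMIs) in mesothelial-like cells. Plxna2 was at 169 to 229 CPM in all 4 endothelial types.

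Outside endothelium, Plxna4, a receptor of class 3 and class 6 semaphorins, was led by mesothelial-like cells at 307 CPM (282 to 334). Plxna4os1 lies on the opposite strand inside Plxna4 (chr6:32511073-32515576 within chr6:32144268-32588192, GENCODE vM21), and the use of strand in counting is not given in the sources used here. Both genes are therefore uncertain in Kupffer-like cells, where Plxna4os1 had 47.4 CPM and Plxna4 21.0. Plxnb2, a receptor of class 4 semaphorins, was highest in Kupffer-like cells (214 CPM, 206 to 222), followed by mesothelial-like cells at 147 CPM and cholangiocyte-like cells at 143. Plxnb1 was led by cholangiocyte-like cells (91.6 CPM), 3.26-fold above mesothelial-like cells. Plxna1, at 50.5 CPM in stellate-like and 37.9 in portal fibroblast-like cells, had overlapping intervals there.

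Of the 7 ephrins, Efnb1, Efnb2 and Efna1 were highest in an endothelial type, Efna5 in mesothelial-like cells and Efna4 in cholangiocyte-like cells. Efna2 (11.6 CPM, 21 UMIs) and Efnb3 (2.21 CPM, 4 UMIs) were also highest in mesothelial-like cells, but at low levels. Efna2 stood at 10.6 CPM in cholangiocyte-like cells, a 1.09-fold difference (0.54 to 2.24). Efnb1, a transmembrane ligand of EphB receptors, stood at 863 CPM (812 to 916) in vascular endothelial-like cells, 3.11-fold above sinusoidal endothelial-like cells (278). Efnb2 stood at 232 CPM in vascular, 211 in lymphatic and 163 in sinusoidal endothelial-like cells, but at 30.8 (22.1 to 41.8) in central vein endothelial-like cells. Efna1, which is anchored by a lipid and binds EphA receptors, ranged from 164 CPM in vascular to 42.8 in central vein endothelial-like cells. Efna5 differed from these 3, with 181 CPM in mesothelial-like and 63.5 in stellate-like cells and at most 5.55 CPM in the 4 endothelial types.

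Eph receptors divided by type. Ephb4 was highest in central vein endothelial-like cells at 321 CPM (292 to 353), above sinusoidal (184), lymphatic (161) and vascular (130) endothelial-like cells, and its lowest of these 4 was the type with most Efnb2. Epha7 was led by stellate-like cells at 145 CPM (138 to 152), 9.47-fold (6.29 to 15.0) above cholangiocyte-like cells among the 10 types with most UMIs. Epha3 stood at 68.5 CPM (47 UMIs) in portal fibroblast-like and 39.3 in stellate-like cells. It had at most 1 UMI in each of the other types with at least 20 cells. Ephb1 was highest in mesothelial-like cells (68.5 CPM, 124 UMIs), followed by lymphatic endothelial-like cells (16.6 CPM, 3 UMIs), and among the 10 types with most UMIs it was 9.45-fold above vascular endothelial-like cells. Epha2 was highest in plasmacytoid dendritic-like cells (94.5 CPM, 20 UMIs), followed by cholangiocyte-like cells at 41.2 CPM.

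Slit3, Robo2 and Robo4 were highest in different types. Slit3, a secreted ligand, was at 150 CPM (122 to 182) in portal fibroblast-like cells, 7.99-fold (5.38 to 12.2) above mesothelial-like cells. In stellate-like cells of replicate 2 the 3 Slits together had 0 UMIs, against a limit of 0.253 CPM set by 3 counts, while the 10 stellate-like cells of replicate 1 held 2 UMIs of Slit3. Robo2, a receptor of Slits, stood at 225 CPM (217 to 234) in stellate-like cells and 31.0-fold (13.3 to 95.4) lower, at 7.28 CPM from 5 UMIs, in portal fibroblast-like cells. Robo4, which differs from the other Robo proteins in its extracellular part, was at 353 CPM in sinusoidal, 292 in central vein and 163 in vascular endothelial-like cells. Robo1 fell below the level rule, with 35.8 CPM in stellate-like, 33.0 in central vein and 28.1 in sinusoidal endothelial-like cells. Portal fibroblast-like cells, which had the most Slit3, also held Robo receptors at 30.6 CPM (21 UMIs), 71.4% of them Robo1.

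The netrins differed in where they were highest. Ntn1, the founding netrin, stood at 416 CPM (327 to 522; 75 UMIs) in the 29 lymphatic endothelial-like cells and 345 (335 to 356) in stellate-like cells, intervals that overlap. Of the 7 stellate gate markers 3 were seen in lymphatic endothelial-like cells (112 UMIs, 622 CPM, against 19212 CPM in stellate-like cells), and Lrat, Colec11, Hand2 and Angptl6 were at 0. All 6 mesothelial gate markers and the check gene Rspo1 were at 0 there, while Igfbp5 stood at 6072 CPM. Their part in the Ntn1 level was not tested. Ntn4, a laminin-related netrin of basement membranes, was at 844 CPM (793 to 896) in vascular and 419 in sinusoidal endothelial-like cells. Both were read in central vein endothelial-like cells (Ntn4 188 CPM, Ntn1 62.3) and in portal fibroblast-like cells (Ntn1 105, Ntn4 48.1). Unc5b, a netrin receptor of endothelial tip cells, was highest in stellate-like cells at 70.1 CPM, close to lymphatic endothelial-like cells (66.6 CPM, 12 UMIs), and stood at 5.50 in sinusoidal endothelial-like cells. The netrin receptor Neo1 was led by mesothelial-like cells (144 CPM), and Dcc had 15 UMIs in stellate-like cells (1.27 CPM).

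The 27 members below the level rule had 0.805 to 93.9 CPM in their highest type (median 22.9), and 13 of them had under 20 UMIs there. They were Sema3a, Sema3b, Sema3e, Sema4f, Sema5b, Sema6c, Sema7a, Plxna3, Plxnb3, Efna2, Efna4, Efnb3, Epha1, Epha4, Epha5, Ephb2, Ephb3, Ephb6, Slit1, Slit2, Robo1, Robo3, Unc5a, Unc5c, Unc50, Unc5cl and Plxna4os1. The 93.9 CPM belonged to Unc50 in NK and ILC1-like cells and came from 9 UMIs.

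With the 3 blood endothelial types as 1 class (2960 cells), set against the other types of at least 500000 UMIs, 11 of 30 members with enough UMIs (36.7%) were led by endothelium. The background for this count is 4.24% of all genes, and the grouping was chosen after seeing the data. Robo4 was 19.4-fold (16.9 to 22.5) above stellate-like cells, Plxna2 9.77-fold above portal fibroblast-like, Ntn4 9.01-fold above the same and Efnb2 7.91-fold above cholangiocyte-like cells. Plxnd1 (6.92-fold), Sema6b (5.95), Sema6a (4.27), Plxnc1 (3.90), Efnb1 (3.36), Ephb4 (3.22) and Efna1 (2.33) completed the group. The coreceptors of the class 3 semaphorins, Nrp1 (1297 CPM, 7.81-fold) and Nrp2 (451 CPM, 7.78-fold), were also led by this class, as were 2 further genes of 35 tested from a list of coreceptors, carriers and effectors, Vav3 and Ptk2. Over the 16 single types 15 of 38 tested genes of that list were led by 1 type, against 16.8% of all genes, including the heparan sulfate carriers Gpc3 in mesothelial-like (857 CPM) and Sdc3 in Kupffer-like cells (3054 CPM).

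Within endothelium the guidance genes were compared between the 3 blood endothelial types, all of replicate 1. A member was called different when its CPM differed 2-fold or more and both types together held 20 UMIs or more, and brackets give exact conditional binomial 95% intervals. Of 28 members tested between central vein and sinusoidal endothelial-like cells, 2 were higher in the former (5.58% of all genes): Ntn1 11.5-fold (8.29 to 15.9) and Sema3d 5.45-fold (4.53 to 6.54). Another 3 were higher in sinusoidal endothelial-like cells (6.19% of all genes): Efnb2 5.30-fold (3.89 to 7.41), Ntn4 2.24-fold and Efna1 2.22-fold. The other 23 were within 2-fold, and the median log2 ratio was -0.16 against -0.01 over all genes. Sinusoidal gate markers summed to 7499 CPM in central vein and 12543 in sinusoidal endothelial-like cells, and 182 cells passed both gates. Their part in the ratios was not tested.

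Against sinusoidal endothelial-like cells, 5 of 30 members were higher in vascular endothelial-like cells (7.85% of all genes) and 8 lower (11.5%). Epha4, an Eph receptor that binds both ephrin classes, was 60.4-fold higher (25.0 to 176; 33 against 6 UMIs), and Sema3g 1186-fold with 1 UMI on the sinusoidal side (208 to 47252). Efnb1 was 3.11-fold, Ntn1 3.41-fold and Ntn4 2.01-fold higher (1.88 to 2.15). Lower were Plxnc1 (6.33-fold, 5.46 to 7.38), Robo1 (3.49-fold), Sema4c (2.29-fold), Robo4 (2.16-fold) and the netrin receptor Unc5a (2.11-fold). Sema3d was lower as well, with 0 UMIs. Its ratio was 10.4-fold against a limit of 3 counts in the type, and its interval began at 8.40-fold. Sema4a and Sema4g completed the 8 with 1 UMI each in vascular endothelial-like cells, and their intervals included no difference. The median log2 ratio of the members was 0.00, and -0.09 over all genes. Sinusoidal gate markers summed to 2708 CPM in vascular endothelial-like cells, where all 6 were seen, and 97 cells passed both gates, and their part in these ratios was not tested.

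Between the vascular and central vein types, 7 of 26 members were higher in the former (6.79% of all genes) and 6 in the latter (7.74%). On the vascular side stood Efnb2 (7.53-fold, 5.42 to 10.7), Efnb1 (5.90-fold), Ntn4 (4.50-fold), Efna1 (3.84-fold), Epha4 (3.22-fold), Plxnd1 (2.12-fold) and Sema3g. The ratio of Sema3g was 38.6-fold against the same limit of 3 counts for 0 UMIs, and its interval began at 30.9-fold. On the central vein side stood Sema3d (56.6-fold against that limit, interval from 45.5), Plxnc1 (4.91-fold), Robo1 (4.10-fold), Ntn1 (3.37-fold), Ephb4 (2.46-fold, 2.05 to 2.97) and Unc5a (2.25-fold). Efnb1, Efnb2 and Efna1 were thus higher on the vascular side and Ephb4 on the vein side. Calls here rest on the ratio itself, and some intervals reached below 2-fold. These were Efna1 and Ntn4 between central vein and sinusoidal endothelial-like cells, Sema4a, Sema4c, Sema4g, Ntn4, Robo1, Robo4 and Unc5a between vascular and sinusoidal, and Epha4, Plxnd1 and Unc5a between vascular and central vein.

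The sinusoidal endothelial-like cells were then ordered by a score of central landmarks (Wnt2, Kit, Thbd, Cdh13, Rspo3) minus portal landmarks (Dll4, Msr1, Ltbp4, Adam23, Mecom), none of which is a member. By this score the cells fell into 3 equal ranges, 875 cells each. A range is a stretch of the score rather than a type of cell, 383 cells lay within 0.1 of a boundary, and position in the tissue was not measured. Of 27 members with enough UMIs, 3 were higher in the portal range (2.3% of all genes) and 1 in the central range (1.97%). Efnb1 stood at 135, 235 and 460 CPM in the central, middle and portal range, a 3.42-fold difference between the ends (3.12 to 3.75). Efnb2 stood at 64.3, 161 and 262 CPM (4.08-fold, 3.58 to 4.65), and Ntn4 at 169, 384 and 699 CPM (4.14-fold, 3.82 to 4.49). Sema3d ran the other way, with 46.8, 20.02 and 8.96 CPM (5.23-fold, 3.72 to 7.49). In each of these 4 genes the middle range lay between the ends.

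The receptors Ephb4, Plxnc1, Plxnd1, Robo4 and Plxna2 and the ligands Sema3f, Sema6a and Sema6d were within 2-fold over the same ranges. Ephb4 was 1.44-fold (1.31 to 1.58) and Plxnc1 1.45-fold (1.38 to 1.51) higher in the central range, and Plxnd1 1.46-fold (1.39 to 1.54) higher in the portal range. The intervals of Robo4 (1.03-fold central over portal, 0.960 to 1.11) and Plxna2 (1.01-fold, 0.918 to 1.10) spanned no difference and stayed within 1.11-fold. Sema3f was 1.03-fold and Sema6d 1.18-fold higher in the central range, and Sema6a 1.13-fold higher in the portal range. The median log2 ratio of the members was 0.04, and 0.02 over all genes. Vascular gate markers summed to 184 CPM in the portal and 65.0 in the central range, against 2084 CPM in vascular endothelial-like cells, and central vein gate markers, 2 of which are landmarks, to 18.1 and 341 CPM. Their part in the gradients was not tested.

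**Figure D4:**
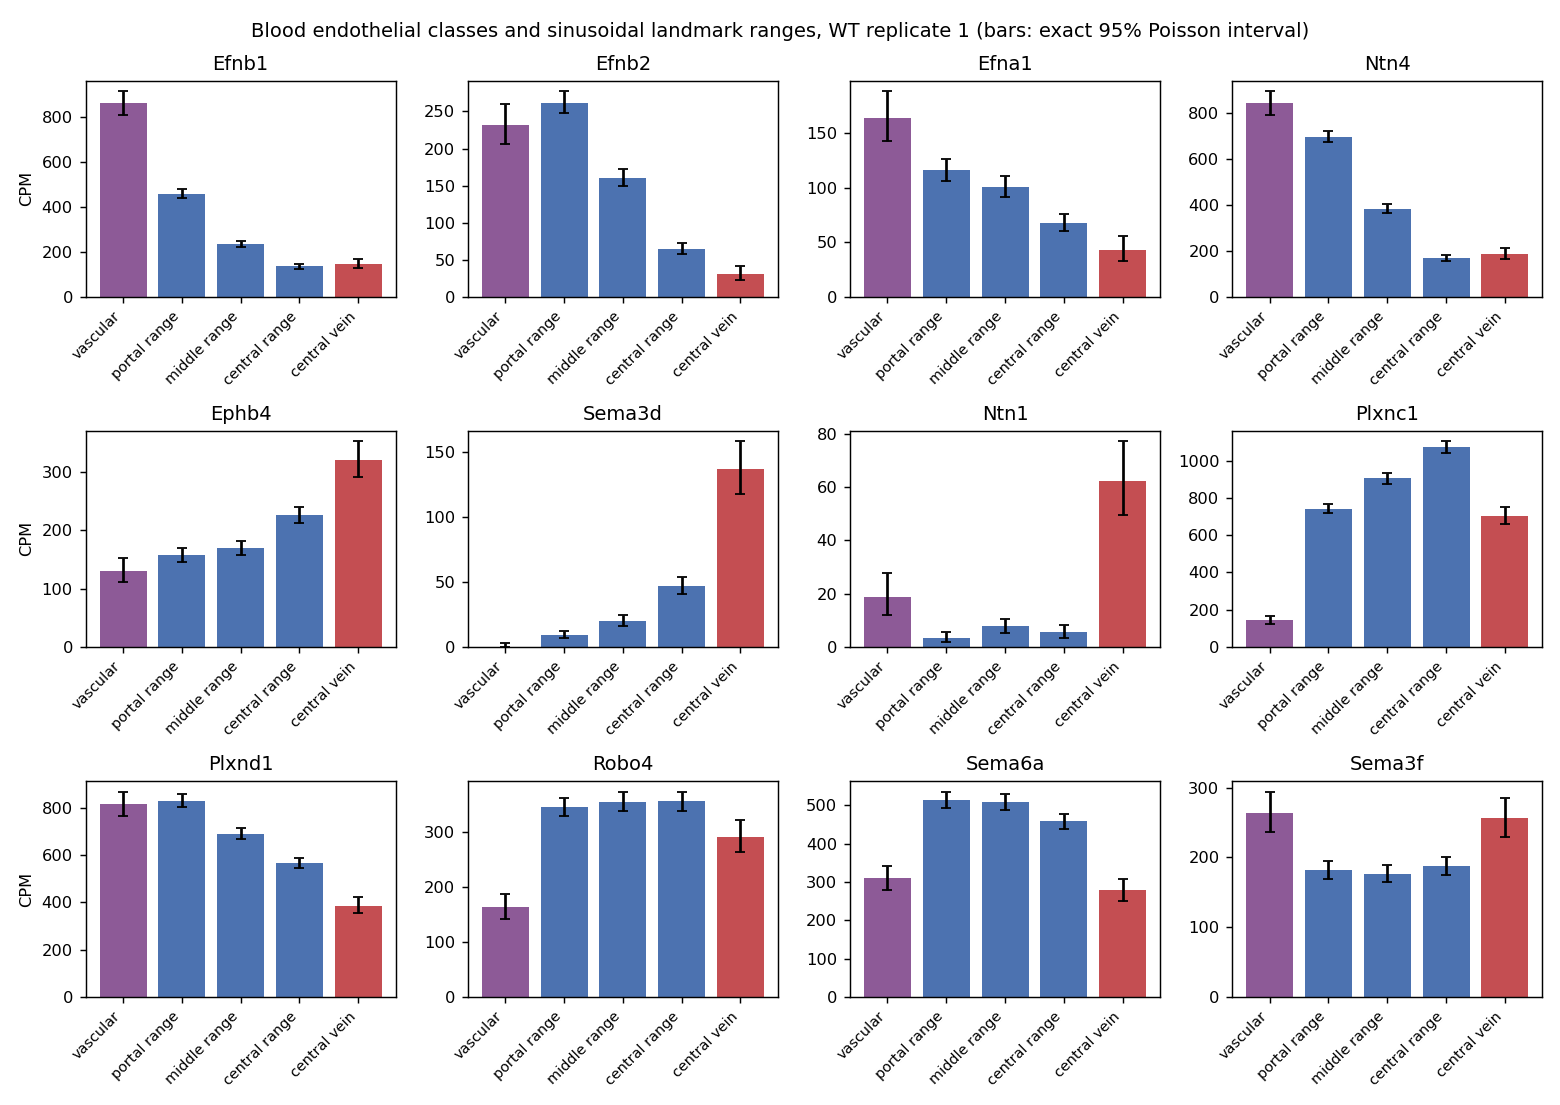
Level (CPM, each panel with its own axis from 0) of 12 members in vascular endothelial-like cells (purple), the portal, middle and central score ranges of sinusoidal endothelial-like cells (blue) and central vein endothelial-like cells (red), all of WT replicate 1, with exact 95% Poisson intervals. Efnb1, Efnb2, Efna1 and Ntn4 are lower in the central range than in the portal range and low in central vein endothelial-like cells, while Ephb4 and Sema3d are highest there, and Robo4 is level across the 3 ranges.

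The 2337 stellate-like cells of replicate 2 were split in the same way, with the central landmarks Spon2, Podn, Loxl1 and Adamtsl2 and the portal landmarks Il34, Igfbp3, Itgb3 and Ngfr. Each of the 3 ranges held 779 cells. Of 39 members tested, 4 were higher in the central range (2.23% of all genes) and 1 in the portal range (1.91%). Plxna4 stood at 34.0, 16.7 and 5.67 CPM in the central, middle and portal range (5.99-fold, 3.82 to 9.78). Ephb3, a receptor of Efnb1 and Efnb2, stood at 20.4, 11.6 and 6.91 CPM (2.95-fold, 1.90 to 4.72), and Epha4 at 33.7, 25.5 and 14.6 CPM (2.32-fold, 1.69 to 3.21). Sema5a, from 32 UMIs against 14, was 2.42-fold higher (1.26 to 4.91). All 4 are genes of low level in these cells, and 2 of them, Plxna4 and Epha4, had been seen in earlier work on these data. With the score divided into 2 equal parts in place of the outer ranges, Plxna4 was 3.64-fold and Sema5a 2.09-fold higher, while Ephb3 (1.86-fold) and Epha4 (1.87-fold) were within 2-fold. Among markers of other types, central vein gate markers summed to 1577 CPM in the central and 850 in the portal range, mesothelial ones to 34 and 4 UMIs (1 of 6 markers seen) and hepatocyte ones to 103 and 48 UMIs. Their part in the 4 central values was not tested.

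Efnb2 was the 1 member called higher in the portal range, with 2.61 CPM in the central and 7.15 in the portal range (2.74-fold, 1.30 to 6.29, from 10 against 29 UMIs). Epha2 had more UMIs (54 against 113, at 14.1 and 27.9 CPM) and fell under the 2-fold rule. The stellate level of Efnb2 was 3.11% of the sinusoidal one, below the share of every endothelial marker and check gene. Sinusoidal gate markers summed to 789 CPM in the central and 864 in the portal range and vascular gate markers to 8.62 and 17.0, and their part in this value was not tested. Without Igfbp3, Il34, Adamtsl2, Podn or Ngfr among the landmarks the ratio of central to portal range was 0.507 to 0.547, under 2-fold.

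The abundant members of stellate-like cells were within 2-fold over the ranges. Ntn1 stood at 336, 359 and 341 CPM in the central, middle and portal range, and its end ranges did not differ beyond their intervals. Robo2 stood at 280, 224 and 175 CPM, Sema6d at 340, 377 and 475, and Epha7 at 123, 146 and 164. The end ranges of these 3 genes had intervals that did not overlap, at differences under 2-fold. Over the 39 members the median log2 ratio of central to portal range was -0.07, and 0.02 over all genes.

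**Figure D5:**
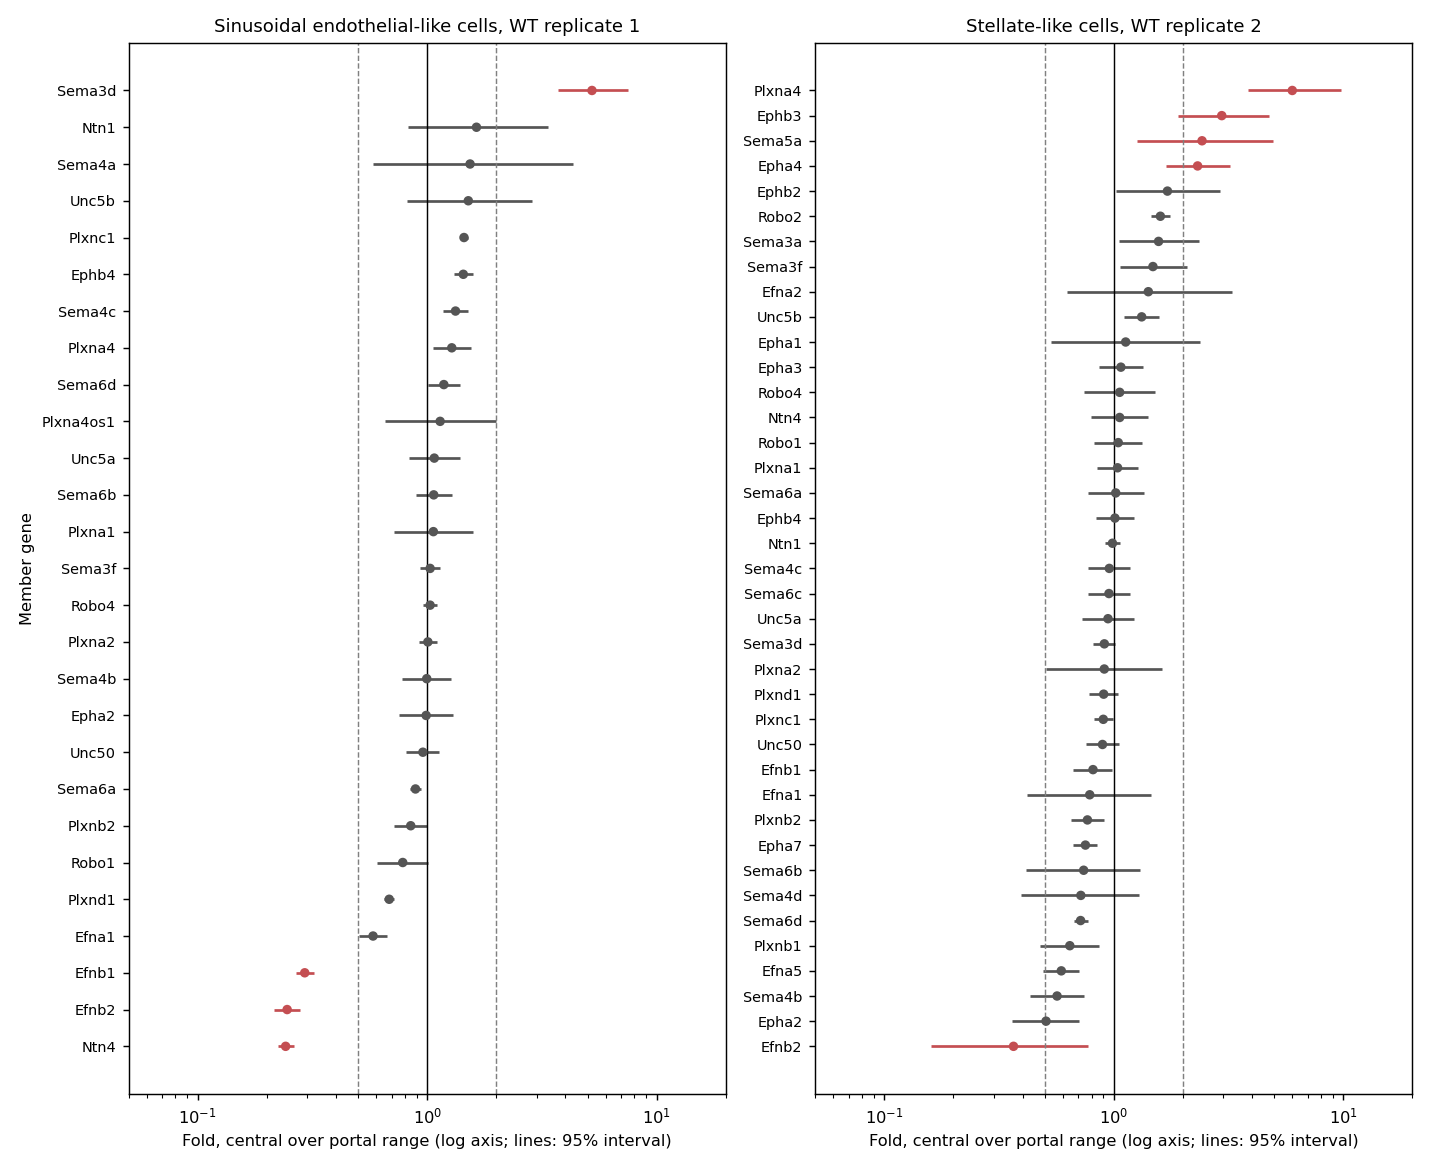
Ratio of CPM between the central and the portal score range (horizontal, log axis) for each member with enough UMIs in sinusoidal endothelial-like cells (left, 27 members) and stellate-like cells (right, 39 members), with exact 95% intervals. Dashed lines mark 2-fold and red marks members past it: Sema3d against Efnb1, Efnb2 and Ntn4 on the left, and Plxna4, Ephb3, Sema5a and Epha4 against Efnb2 on the right.

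Only 10 stellate-like cells (69244 UMIs) were found in replicate 1, too few for a comparison. Of the 28 members with at least 1 expected UMI there, 25 had a UMI. The replicate 2 level of 17 lay inside the replicate 1 interval, a count without a background over all genes. Ntn1 (217 CPM against 345) and Plxnc1 (144 against 213) were inside. Robo2 (86.7 against 225), Epha7 (43.3 against 145), Sema3d (28.9 against 162) and Sema6d (72.2 against 399) were lower in replicate 1, and Plxnd1 (491 against 98.6) and Efnb1 (376 against 53.2) higher. The endothelial check gene Bmp2 was at 563 CPM in these cells against 257, and the stellate check gene Gdf2 at 404 against 864, so endothelial genes were higher and stellate genes lower in the same cells. Their part in the differences was not tested.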

How the data were processed

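Raw UMI counts per gene and cell were deposited by the authors in 1 table, and the submitters' processing notes name GRCm38 as the genome build, with Seurat 3.1 and Cell Ranger 2.1.1 as tools and no role given for either. The barcode ending was read as the replicate number. Kept were cells of 200 genes or more whose mitochondrial UMIs did not exceed 20% (6765 of 7362 in replicate 1, all 2341 in replicate 2, from 40645060 and 11867207 UMIs). A type gate asked for at least 3 markers and 6 UMIs (4 for vein and vascular endothelium, which went before the sinusoidal gate). A cell passing several gates was kept where 1 type had 3 times the marker UMIs of the others. No doublet caller was run. UMIs were summed per type and scaled to CPM with Python 3.11.15, numpy 2.4.6 and scipy 1.17.1. The ratio code was tested on simulated data. Members were named with values at 50 CPM from at least 20 UMIs in their highest type, or when called in an endothelial or range comparison, and Sema7a, Sema3e and Sema6c were added after their values were seen. The members and lists were chosen with earlier results of these data known. Coordinates are from GENCODE vM21, where 22 of 62 members overlap another gene of the table. PCR and droplet effects are not covered by the intervals.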

Additional observations from a re-analysis of the deposited data

How the results depend on the processing

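Each fold called in an endothelial or range comparison kept its direction in all 169 alternatives. Folds of a type over the next type and ratios within 2-fold were not varied. Of 163 alternatives for counts of members 129 stayed within 1.5 times the main value. Levels were judged against their Poisson intervals instead. Of 374 alternatives for levels and folds, 18 moved and 356 did not. The counts of led members rest on few genes. In place of 13 led members there were 6 at 3-fold, 21 with the 10 types of at least 500000 UMIs and 29 with blood endothelium also as 1 class. The last 2 settings gave 5 for stellate-like and 2 for cholangiocyte-like cells. Of all genes, 16.8% were led by any type under the main rule and 25.8% with those 10 types. No such share was computed for the other settings here, including 1.5-fold in the ranges, so those counts have no background. At 3-fold mesothelial, vascular and plasmacytoid dendritic-like cells led 1 each, and hepatocyte and cholangiocyte-like cells 0. Vascular endothelial-like cells led 1 with 10 marker UMIs or a mitochondrial limit of 10%. Leaving out cells of several gates, that mitochondrial limit, or leaving out the 5% of cells with most UMIs gave 1 for plasmacytoid dendritic-like and 0 for cholangiocyte-like cells, and 50 UMIs gave 0 for plasmacytoid dendritic-like cells. Members at 50 CPM numbered 14 without replicate 1 and 31 without replicate 2, against 35. Without replicate 1 stellate-like cells alone remain, and no led count could be given. In sinusoidal ranges 2 members were higher on the central side without Ltbp4 and 4 at 1.5-fold. In stellate ranges the central side had 2 with 2 equal parts of the score and 7 at 1.5-fold. The portal side had 0 with 2 equal parts, without Podn, without Igfbp3 or at 50 UMIs, 5 at 1.5-fold and 2 without the 5% of cells with most UMIs. At 3-fold, 1 member was higher in sinusoidal than central vein and 4 in sinusoidal than vascular endothelial-like cells. No paired analysis was possible because the 2 libraries form 1 group. Depth limits the 6 types under 500000 UMIs most, where 3 counts equal 14.2 to 45.6 CPM.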
